A study of Oncorhynchus mykiss with 24 samples.

Results

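Levels of 4 respiratory chain spots were compared in the liver of domesticated, hybrid and wild rainbow trout. The spots were C001R146 and C205R127, both described as NADH-ubiquinone oxidoreductase chain 2 (ND2), C010R151, described as cytochrome c, and C044R125, described as cytochrome c oxidase subunit 4 isoform 2 (COX4-2). They were chosen by their spot identifiers, as 4 of the 43689 oligos on the array, because the study lists each of them as different in D relative to a wild group or in W/D relative to Wa or to D. Differences in those 4 pairings are therefore given as a description, with standard errors and without p-values. W/D relative to Ws and Wa relative to Ws, for which none of the spots was listed, were tested. These tests are not free of the choice, since the pairings used for it share the W/D, Wa and Ws values. Spots not listed there on the same arrays were also less likely to be called. All 4 spots had a Cy5 signal of at least 300 without a flag on each of the 24 arrays, so that none of them passed the filter through its highest group alone, and all were among the 8679 oligos tested. A spot is called different in a pairing when limma's adjusted p is at most 0.05 and the difference is at least 2-fold.

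The respiratory chain of the inner mitochondrial membrane passes electrons from NADH to oxygen and uses the energy released to pump protons, which drive the synthesis of ATP. ND2 is a membrane subunit of complex I, where electrons enter from NADH, and its gene lies on the mitochondrial genome, which is inherited through the mother. Cytochrome c, a small soluble protein that carries electrons from complex III to complex IV, and COX4-2, an isoform of a regulatory subunit of complex IV that in mammals is abundant in lung and induced at low oxygen, are encoded by nuclear genes and imported into mitochondria.

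The study asked how genotype and developmental stage bear on mRNA levels in the liver. The D fish were the offspring of 1 female and 1 male of a commercial domesticated strain (Campbell Lake Trout Farms) selected for fast growth. The W/D fish were F1 hybrids of the same D female and a wild male from Pennask Lake, and the Wa fish, of the same age as D, came from a Pennask Lake female and that same wild male. The Ws fish, close to D in size, were Pennask Lake trout from randomly mated crosses made in 2006, a year before the 2007 crosses of the other groups. D and W/D thus had the same mother, and the spread between fish in D, W/D and Wa is the spread within 1 family. Family and strain therefore cannot be told apart, and neither can age, body size and family in Wa relative to Ws. D and Ws were the heaviest fish, and the hybrids lay between the parental strains in body size. Size thus differed along with genotype among D, W/D and Wa, and age did so in D relative to Ws. Both differed in W/D relative to Ws. Their parts in these pairings cannot be told apart from genotype and family. Fish were unfed on the last day before sampling. Every array compared 1 fish (Cy5) with a reference pool made from the RNA of 6 size-matched wild fish (Cy3). Each of 6 slides held 1 fish from each group at that group's own position, so that slide position and group cannot be told apart. Fish with the same number in each group were taken to share a slide, and slides carry that number here. Levels are log2 ratios of the fish over the pool. They compare groups within a spot and give no order of abundance between spots.

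The median Cy5 signal over all oligos of an array was between 197 and 246, and between 33.6% and 46.2% of the oligos had a Cy5 signal above the mean local background by 2 of its standard deviations. The titles of D replicates 4 and 6 carry the same fish number. Over all tested oligos these arrays had a correlation of 0.62, within the 0.40 to 0.64 of the other pairs of D fish. That range does not show whether they are the same fish. They were counted as separate fish. The number of arrays, 6 in each group, limits how precise each value can be.

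ND2 at spot C001R146 had its highest mean in D, where it was called relative to both wild groups, and its next highest in W/D, where it was called relative to neither. The log2 ratio had a lowest value, median and highest value of 0.92, 1.16 and 1.70 in D, 0.69, 0.88 and 2.02 in W/D, -0.15, 0.04 and 0.65 in Wa and -0.28, 0.24 and 0.77 in Ws. Every D fish lay above every wild fish of both groups, and every W/D fish lay above every Wa fish. Ranges above those of the other group, without overlap, were found for 1.67% of the oligos with values in every fish in D relative to Wa, 2.12% relative to Ws, and 0.728% for the hybrid relative to Wa, and since the spot was chosen for such differences nothing is read from these shares.

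The log2 fold change of this spot was 1.09 ± 0.23 (SE) in D relative to Wa, or 2.13-fold, and 1.04 ± 0.23 (SE) in D relative to Ws, or 2.05-fold. In both pairings D was higher on 6 of 6 slides, which follows from ranges that do not overlap and adds nothing to them. These differences lie close to 2-fold, and the spot was no longer called in D relative to Wa without slide 3 (0.94) or slide 6 (0.99), nor in D relative to Ws without D replicate 3 (0.95), D replicate 6 (0.95), Ws replicate 1 (0.94) or slide 3 (0.96). In W/D the level was 1.80-fold that of Wa, a log2 fold change of 0.85 ± 0.23 (SE), which was not called. W/D and D overlapped, with a log2 fold change of -0.24 and a 95% interval from -0.70 to 0.22. The highest W/D value, 2.02 in replicate 2, exceeded every D value, while the remaining W/D fish had at most 0.96.

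In the tested pairing of W/D relative to Ws, C001R146 was 1.74-fold higher in W/D, with a log2 fold change of 0.80 ± 0.23 (SE), an adjusted p of 0.0475 by limma and a higher value in W/D on 6 of 6 slides. It was not called, since it stayed under 2-fold. The adjusted p was between 0.0126 and 0.444 over 27 alternative settings and was at most 0.05 in 8 of them. Wa relative to Ws had a log2 fold change of -0.05 with a 95% interval from -0.51 to 0.41 (adjusted p = 0.945 by limma). Neither bound of that interval reached 2-fold.

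The other ND2 spot, C205R127, had the same order of D, W/D and wild fish but smaller differences and overlapping ranges. Its log2 ratio had a lowest value, median and highest value of 0.11, 1.06 and 1.40 in D, 0.21, 0.82 and 1.19 in W/D, -0.39, 0.20 and 0.68 in Wa and -0.15, 0.55 and 0.93 in Ws. Of the 6 D fish, 5 lay above all Wa fish, and the exception was replicate 1 with 0.11. The log2 fold change was 0.78 ± 0.24 (SE) in D relative to Wa, 0.48 ± 0.24 (SE) in D relative to Ws, 0.58 ± 0.24 (SE) in W/D relative to Wa and -0.20 ± 0.24 (SE) in W/D relative to D. None of these reached 2-fold, so that C205R127 was the only one of the 4 spots called in no pairing.

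Neither tested pairing passed the threshold at C205R127. W/D relative to Ws had a log2 fold change of 0.28 with a 95% interval from -0.20 to 0.77 (adjusted p = 0.594 by limma), and Wa relative to Ws one of -0.29 with an interval from -0.78 to 0.19 (adjusted p = 0.594 by limma).

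**Figure D1:**
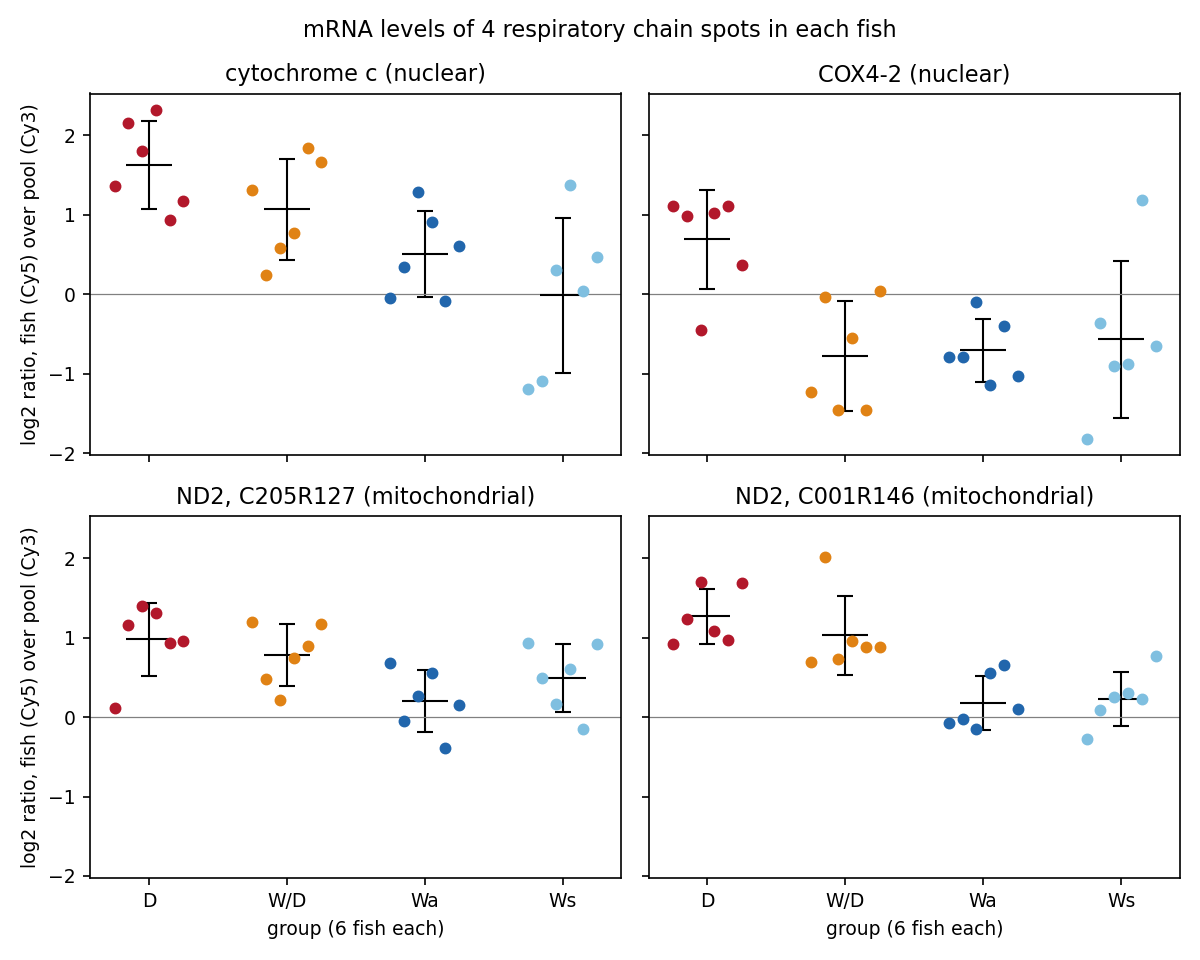
Log2 ratio of each fish over the reference pool (vertical axis) by group (horizontal axis) for the 4 spots, with 1 point for each of the 6 fish of a group, a long bar for the group mean and error bars for 1 SD. At ND2 spot C001R146 all D points lie above all Wa and Ws points, and at COX4-2 the W/D points lie with the wild groups, with a highest value of 0.04.

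The signal of C205R127 in the reference pool changed from slide to slide. The pool was the same RNA on every array, and its Cy3 signal at this spot was between 182 and 318.5 on the 4 arrays of slide 1 and between 569.5 and 1804 on the other slides. Scaled to the median of each array, the log2 Cy3 signal had an SD of 0.85 over the 24 arrays, at the 99.6th percentile of the tested oligos, and 93.0% of its variance lay between slides. At C001R146 the SD was 0.39, with 58.2% between slides, and the median oligo had an SD of 0.28, with 35.7%. The fish followed the pool on slide 1, where Cy5 at C205R127 was between 327 and 527, against 605 to 4576 on the other slides.

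D replicate 1, the low D value of C205R127, was on slide 1. Its Cy5 signal of 336 was the only one among the 24 that was not above the local background by 2 standard deviations. Without the 4 fish of that slide, a choice made after the pool signals were seen, the log2 fold change in D relative to Wa was 1.05 ± 0.23 (SE) and passed both thresholds. Without D replicate 1 alone it was 0.95 ± 0.23 (SE), which stayed under 2-fold and was not called. The ratio takes out a slide effect that both dyes share, and 13.5% of the variance of the ratio at this spot lay between slides. The part of the low signal on slide 1 in the differences between groups was not tested beyond leaving out the slide or D replicate 1.

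**Figure D2:**
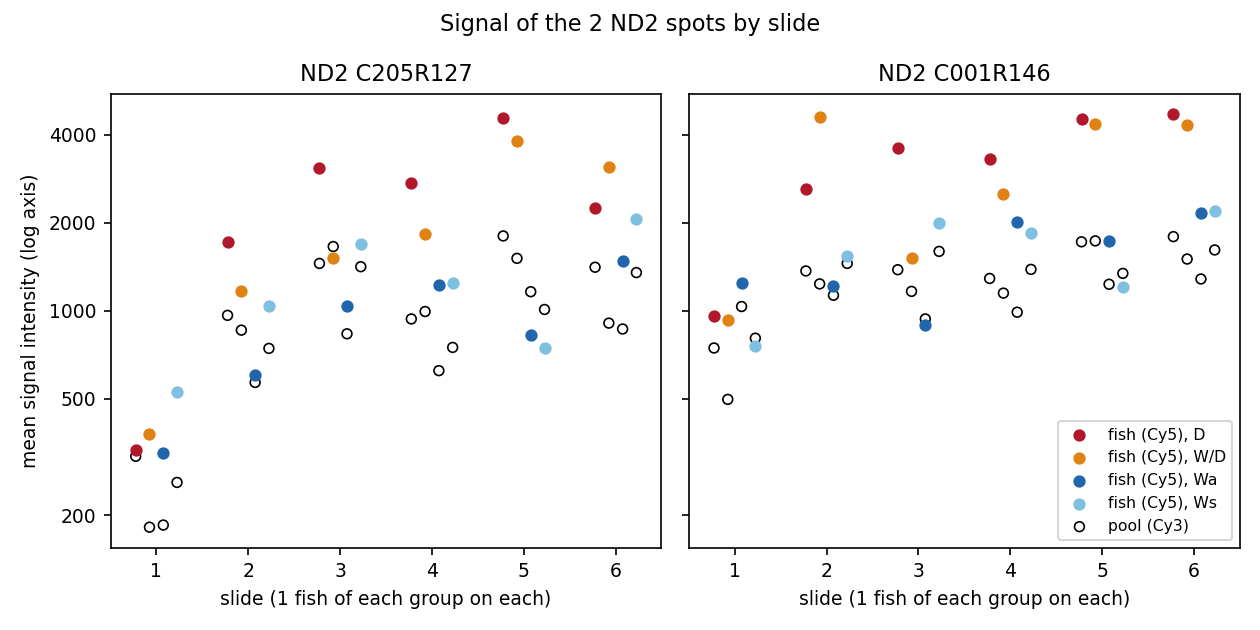
Mean signal intensity (log axis) of the fish (Cy5, filled points coloured by group) and of the reference pool (Cy3, open circles) at the 2 ND2 spots on each of the 6 slides (horizontal axis). At C205R127 the pool lies between 182 and 318.5 on slide 1 and at 569.5 or above on the other slides.

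Cytochrome c had its highest level in D and its lowest in Ws, with W/D and Wa between them, and neighbours in that order did not differ beyond their spread. The log2 ratio had a lowest value, median and highest value of 0.93, 1.59 and 2.32 in D, 0.24, 1.04 and 1.85 in W/D, -0.08, 0.47 and 1.28 in Wa and -1.19, 0.17 and 1.37 in Ws. The groups overlapped in every pairing. Above all Wa fish lay 4 of the 6 D fish, and above all Ws fish 3, and Ws ranged over more than any other group, from -1.19 in replicate 1 to 1.37 in replicate 4.

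The log2 fold change of cytochrome c was 1.64 ± 0.36 (SE) in D relative to Ws, or 3.12-fold, and 1.12 ± 0.36 (SE) in D relative to Wa, or 2.18-fold. D was the higher on 6 of 6 slides each time. Relative to Ws the difference stayed between 1.32 and 1.92 and past both thresholds whichever fish or slide was left out. Relative to Wa the log2 fold change stayed between 0.98 and 1.28, but the spot was no longer called without D replicate 1, 2, 3, 4 or 6, or without Wa replicate 1, 2, 5 or 6, or without any 1 of the 6 slides.

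W/D lay between D and the wild groups at cytochrome c. Its log2 fold change was -0.56 ± 0.36 (SE) relative to D and 0.57 ± 0.36 (SE) relative to Wa, and its distance from the mean of D and Wa was 0.00, with a 95% interval from -0.62 to 0.63. Relative to Ws, which was tested, W/D was 2.12-fold higher on 5 of 6 slides, a log2 fold change of 1.08 with a 95% interval from 0.36 to 1.81 that did not pass after adjustment (adjusted p = 0.0897 by limma, from 0.0208 to 0.309 over 27 alternative settings). It was called when Ws replicate 4, the highest wild fish, was left out (1.36), and when slide 4 was left out (1.42). For Wa relative to Ws the log2 fold change was 0.52, with a 95% interval from -0.21 to 1.24 (adjusted p = 0.511 by limma).

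COX4-2 averaged higher in D than in any other group, and the hybrids lay within the range of the Ws fish. The log2 ratio had a lowest value, median and highest value of -0.45, 1.00 and 1.11 in D, -1.45, -0.88 and 0.04 in W/D, -1.14, -0.79 and -0.10 in Wa and -1.82, -0.76 and 1.19 in Ws. In D, 5 fish had between 0.37 and 1.11 and replicate 3 had -0.45, below 2 of the W/D fish. In Ws, replicate 5 had 1.19, above every D fish, and the other Ws fish had at most -0.36.

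The log2 fold change of COX4-2 was 1.40 ± 0.36 (SE) in D relative to Wa, or 2.63-fold, and 1.26 ± 0.36 (SE) in D relative to Ws, or 2.39-fold, each with D higher on 5 of 6 slides. In W/D relative to D it was -1.47 ± 0.36 (SE), or 2.77-fold lower in W/D, on 6 of 6 slides. W/D relative to Wa had a log2 fold change of -0.07 with a 95% interval from -0.80 to 0.66, and W/D lay below the mean of D and Wa by 0.77, with an interval for this difference from -1.40 to -0.14. COX4-2 was listed both for D relative to Wa and for W/D relative to D, so this place below the mean follows in part from the choice. The interval is not adjusted for the number of oligos, and nothing is read from its leaving out 0. The calls did not hold under every choice of fish. W/D relative to D was no longer called without D replicate 1, 2, 4, 5 or 6 or W/D replicate 1, 3, 4 or 5, nor without slide 1, 2, 4 or 5, with log2 fold changes from -1.70 to -1.25. D relative to Ws was no longer called without D replicate 1, 2, 4 or 5 or Ws replicate 1, 3 or 4, nor without slide 1, 2, 4 or 6, with values from 0.92 to 1.61. D relative to Wa was no longer called without slide 2 (1.32) or slide 4 (1.25).

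Both tested pairings of COX4-2 had wide intervals around 0. The log2 fold change was -0.21 in W/D relative to Ws, with a 95% interval from -0.94 to 0.52 (adjusted p = 0.830 by limma), and -0.14 in Wa relative to Ws, with an interval from -0.87 to 0.59 (adjusted p = 0.895 by limma). The level was higher in W/D than in Ws on 4 of 6 slides.

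Counted together, 3 of the 4 spots were called in D relative to Wa, and likewise 3 relative to Ws, all higher in D, beside 2.00% and 2.43% of all oligos tested that were called higher there. In W/D relative to D 1 of the 4 was called, lower in W/D, beside 0.357% of all oligos called lower, and in W/D relative to Wa none, beside 0.933%. These pairings were used to choose the spots. For Wa relative to Ws, as for W/D relative to Ws, none of the 4 was called, beside 0.887% of all oligos for Wa and 2.06% for W/D. The study, on the same arrays, listed none of the 4 for these pairings, so nothing is read from the absence of calls. At an adjusted p of at most 0.05 without the fold change, the count was 1 for W/D relative to Ws, which is C001R146, beside 3.13% of all oligos, and 0 for Wa relative to Ws, beside 1.39%. All of these comparisons rest on whole liver, in which fewer cells of a type and less RNA per cell cannot be told apart.

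**Figure D3:**
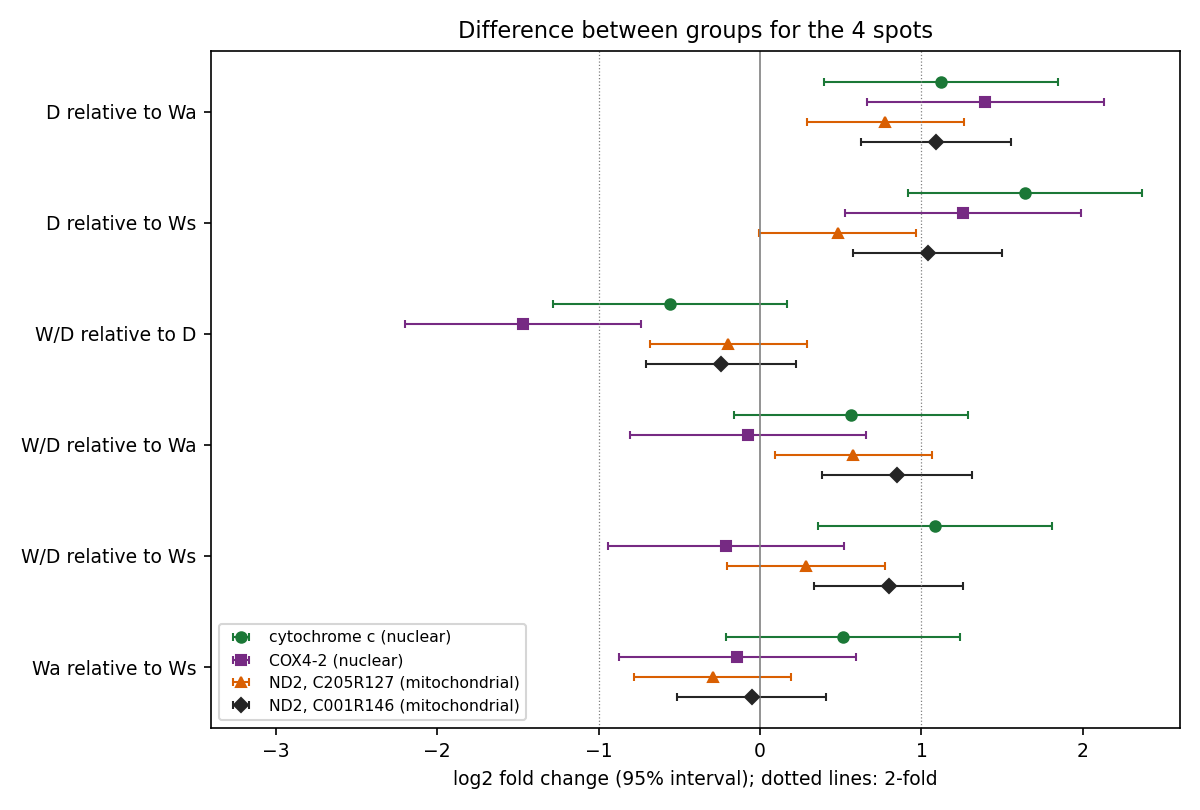
Log2 fold change of the 4 spots (horizontal axis, with 95% intervals as bars and dotted lines at 2-fold) in each of the 6 pairings of groups (vertical axis). In W/D relative to D, COX4-2 stands at -1.47 while both ND2 spots are within 0.25 of 0.

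Among the 4 spots, levels in the hybrid relative to D were nearest at the mitochondrial ND2 and farthest at the nuclear COX4-2. COX4-2 was the only one of them listed for this pairing, so its place follows in part from the choice. The other chain spots tested, which are described below, did not divide by genome. Their log2 fold changes ran from -0.92 (NDUFS3) to 0.45 (coupling factor 6 of ATP synthase) at 6 nuclear spots. At the mitochondrial ND4 and ND5 they were -0.32 and 0.62. The log2 fold change in W/D relative to D was -0.24 and -0.20 at the ND2 spots, -0.56 at cytochrome c and -1.47 at COX4-2, and the 95% interval of cytochrome c, from -1.28 to 0.17, held the estimates of both ND2 spots. The difference between the log2 ratios of COX4-2 and C001R146 within an array averaged -1.81 ± 0.55 (SD, n = 6) in W/D, -0.58 ± 0.95 (SD, n = 6) in D, -0.88 ± 0.58 (SD, n = 6) in Wa, with -0.80 ± 0.94 (SD, n = 6) in Ws. Its W/D values, from -2.34 to -0.84, lay below those of 4 of the 6 D fish, from -0.25 to 0.19, and overlapped the other D fish, replicates 3 and 6 with -2.15 and -1.32. The same difference for cytochrome c averaged 0.04 ± 1.01 (SD, n = 6) in W/D, 0.36 ± 0.64 (SD, n = 6) in D, 0.33 ± 0.70 (SD, n = 6) in Wa, with -0.24 ± 0.79 (SD, n = 6) in Ws, and all groups overlapped. These differences show unequal change of 2 spots across groups and not an amount of one mRNA relative to the other.

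Between fish of the same group, the levels of the 4 spots were not seen to move together. After removal of the group means, none of the 6 correlations between spots over the 24 fish passed a permutation test with Benjamini-Hochberg adjustment over the 6 pairs. The strongest was COX4-2 with ND2 spot C205R127, with Pearson's r = -0.41 (permutation p = 0.0668, adjusted p = 0.401) and Spearman's rho = -0.37 (permutation p = 0.0937, adjusted p = 0.562), and r was -0.19 without Ws replicates 5 and 1, the fish farthest from the median of COX4-2. Cytochrome c with C205R127 had r = 0.28 (permutation p = 0.223, adjusted p = 0.668) and rho = 0.27 (permutation p = 0.242, adjusted p = 0.727), and r was 0.43 without Ws replicates 4 and 1. Cytochrome c and COX4-2, both nuclear, had r = 0.03 (permutation p = 0.908, adjusted p = 0.990) and rho = 0.01 (permutation p = 0.962, adjusted p = 0.962), and r was -0.09 without Ws replicates 4 and 1. For C001R146 r was 0.0029 with cytochrome c (permutation p = 0.990, adjusted p = 0.990, rho = 0.09 with permutation p = 0.699) and 0.08 with COX4-2 (permutation p = 0.720, adjusted p = 0.990, rho = 0.05 with permutation p = 0.832), or -0.16 and -0.04 without the same pairs of Ws fish. Within groups the last of these ran from -0.89 in D to 0.61 in W/D, each over 6 fish. Values of 2 spots on 1 array share its RNA, its labelling and its normalisation.

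For the 2 spots of ND2, which carry the same description, r over the fish was -0.04 (permutation p = 0.862, adjusted p = 0.990) and rho was -0.07 (permutation p = 0.744, adjusted p = 0.962), and r was -0.18 without D replicate 1 and Ws replicate 5. Within groups r was 0.53 in D, -0.35 for the hybrids W/D, -0.34 in Wa and 0.01 in Ws, each over 6 fish. The fish with the highest C001R146 value of all, W/D replicate 2 with 2.02, had 0.48 at C205R127, the second lowest of the W/D fish. The residual correlation was different in the Cy5 channel alone, without division by the pool, where r was 0.73 (adjusted permutation p = 0.0078), and it was 0.27 there (adjusted permutation p = 0.435) once the slide means were removed as well. The Cy3 signals of the pool at the same 2 spots had r = 0.70 over the 24 arrays and r = 0.19 over the 20 arrays without slide 1, given as a description, since all of them measured 1 RNA.

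Within groups, cytochrome c and COX4-2 had a wider spread between fish than the 2 ND2 spots. The SD of the log2 ratio within groups was 0.70 for cytochrome c and 0.71 for COX4-2, at percentiles 97.0 and 97.1 of the tested oligos, against 0.42 for C205R127 and 0.39 for C001R146 and a median of 0.41. This is a description of 2 nuclear and 2 mitochondrial spots. Of the other chain spots, the nuclear NDUFB7 had SDs from 0.23 to 0.38 in the 4 groups and the nuclear coupling factor 6 of ATP synthase from 0.11 to 0.32. The remaining nuclear spots tested reached higher SDs. The COX6B1 spots reached 0.63 in Ws and 0.53 in W/D, NDUFS3 0.56 in W/D and ATP synthase subunit b 0.51 in D. The mitochondrial ND5 reached 0.48 in D and ND4 0.46 in Wa. For the pool, the SD of the scaled log2 Cy3 signal was 0.20 at cytochrome c and 0.26 at COX4-2, where the median oligo had 0.28.

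**Figure D4:**
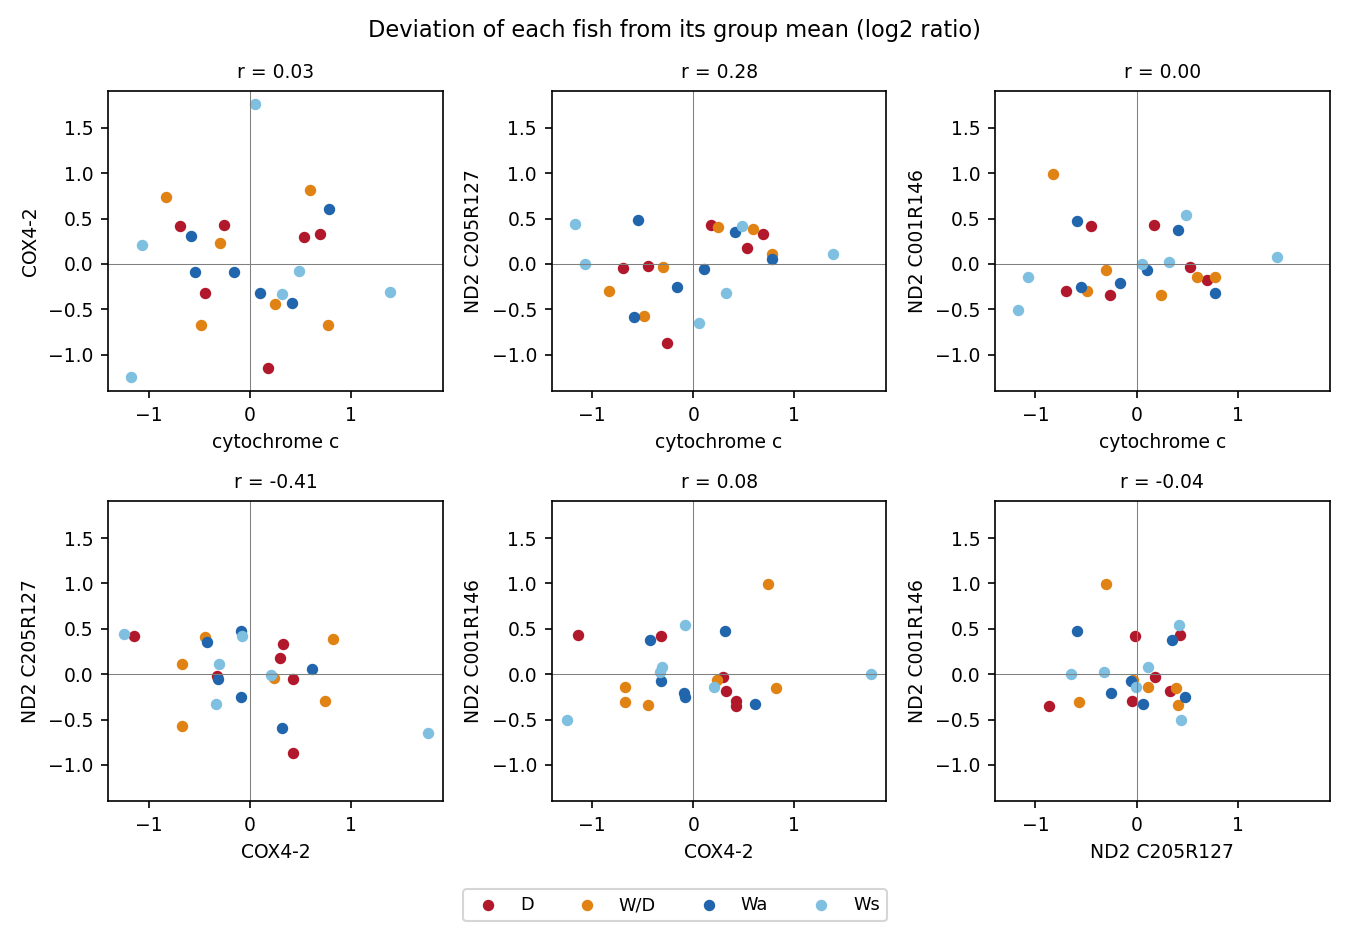
Deviation of each of the 24 fish from its group mean (log2 ratio on both axes, points coloured by group) for the 6 pairs of spots, with Pearson's r above each panel. No panel shows a line of points, with r from -0.41 to 0.28, and the 2 ND2 spots in the last panel have r = -0.04.

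Other subunits of the respiratory chain were taken from the descriptions of the 486 spots that the study lists. These held 11 more spots, 8 nuclear and 3 mitochondrial, of which 6 and 2 passed the filter. Every one of them was listed because it differs in some pairing, so that their changes are no independent evidence. In D relative to Wa 1 of the 8 was called, higher in D, beside 2.00% of all oligos, and their median log2 fold change was 0.25, against -0.02 over all oligos tested. In D relative to Ws 1 was called higher, beside 2.43%, and 1 lower, beside 1.01%, with a median of 0.59 against -0.01. In W/D relative to Ws 1 was called lower, beside 0.668%, with a median of 0.29 against 0.02, and none was called in the other pairings.

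The 2 other mitochondrial mRNAs tested had D at opposite ends of the groups. ND4, a membrane subunit of complex I like ND2, had log2 ratios of 0.48 ± 0.16 (SD, n = 6) in D, 0.16 ± 0.35 (SD, n = 6) in W/D, -0.54 ± 0.46 (SD, n = 6) in Wa, with -0.08 ± 0.44 (SD, n = 6) in Ws, and was called in D relative to Wa with a log2 fold change of 1.02 ± 0.22 (SE). It was no longer called without D replicate 4 or 6, Wa replicate 2, 3 or 5 or slide 2, 3, 4 or 6. ND5, another such subunit, had -1.25 ± 0.48 (SD, n = 6) in D, -0.63 ± 0.39 (SD, n = 5) in W/D, -0.44 ± 0.28 (SD, n = 6) in Wa, with 0.38 ± 0.46 (SD, n = 4) in Ws, where the lower n stands for values missing under the quality flag. It was called lower in D relative to Ws, by a log2 fold change of -1.63 ± 0.26 (SE), and lower in W/D relative to Ws, by -1.01 ± 0.27 (SE), where no spot of the 8 was called without W/D replicate 1, 5 or 6, Ws replicate 1 or slide 1, 2, 5 or 6. The spots of ND2, ND4 and ND5 thus did not share one direction in D, although the 3 genes lie on the same mitochondrial genome. A mitochondrial spot of ND3 did not pass the filter and was not tested, with many values missing under the flag. Its mean log2 ratio was -0.27 in D (n = 3), -0.72 in W/D (n = 3), -1.14 in Wa (n = 3) and -0.48 in Ws (n = 2). Among these mitochondrial spots only ND5 had its lowest mean in D, and the others had their highest mean there.

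Among the nuclear subunits, NDUFS3, a subunit of complex I, was called higher in D relative to Ws, with a log2 fold change of 1.25 ± 0.25 (SE) and levels of 0.84 ± 0.47 (SD, n = 6) in D and -0.42 ± 0.38 (SD, n = 6) in Ws. In W/D it was at -0.08 ± 0.56 (SD, n = 6), and the difference of W/D relative to D, -0.92 ± 0.25 (SE), was not called. The spots of COX6B1, a nuclear subunit of complex IV, differed by 0.62 and 0.83 relative to Ws in D and by 0.95 and 0.88 in W/D on the log2 scale, all under 2-fold and none called. Both differences in W/D, and that of 0.83 in D, had an adjusted p by limma of at most 0.05 and missed only the fold change. ATP synthase subunit b was at 1.99 ± 0.51 (SD, n = 6) in D and 2.06 ± 0.32 (SD, n = 6) in W/D, against 1.18 ± 0.33 (SD, n = 6) in Wa, with 1.32 ± 0.35 (SD, n = 6) in Ws. NDUFB7, a subunit of complex I, and coupling factor 6 of ATP synthase went the other way in D relative to Wa, with log2 fold changes of -0.76 and -0.88 that stayed under 2-fold.

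**Figure D5:**
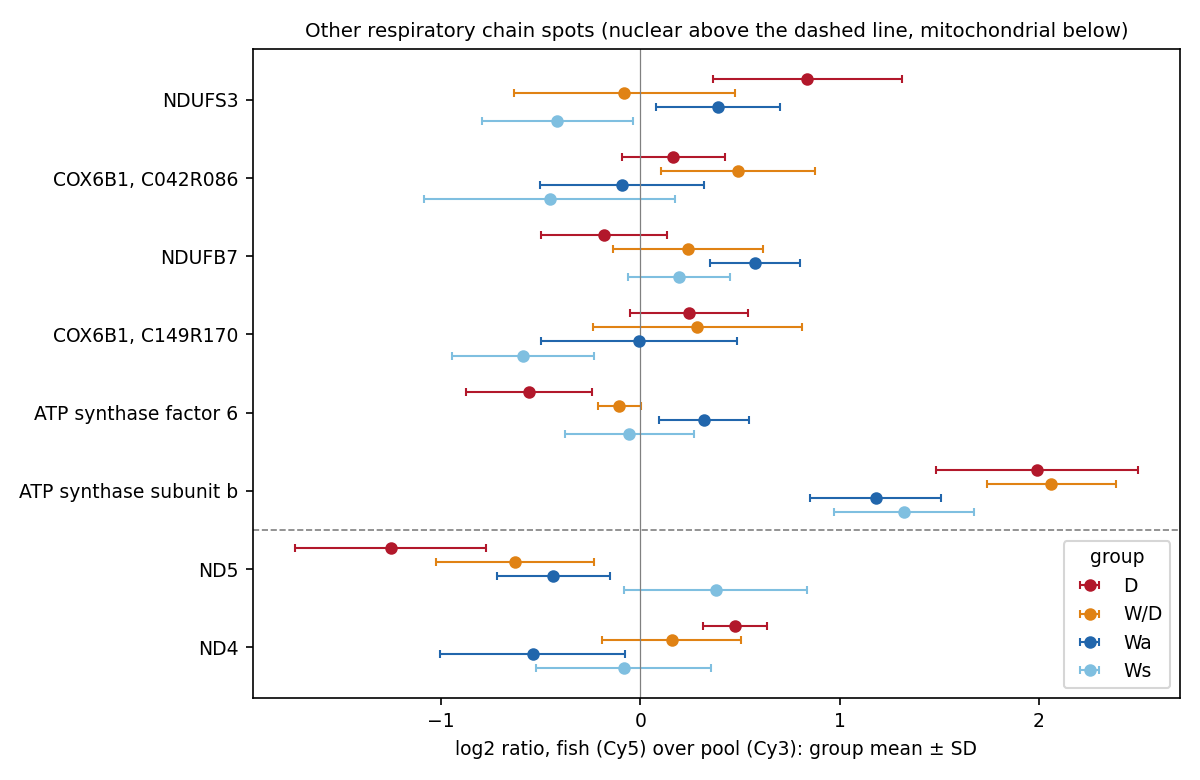
Group means of the log2 ratio over the reference pool (horizontal axis, bars 1 SD over 6 fish, or 5 for W/D and 4 for Ws at ND5) for the 8 other respiratory chain spots tested (vertical axis), nuclear above and mitochondrial below the dashed line. ND4 and ND5 have D at opposite ends of the 4 groups, at 0.48 and -1.25.

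The described mRNAs most like each spot over the arrays, by Pearson's r of the log2 ratios and as a description, were different for each of the 4 spots. Cytochrome c was most like GFPT1, an enzyme of hexosamine synthesis (r = 0.81 over 23 arrays), apoptosis-inducing factor 1, a mitochondrial flavoprotein (r = 0.80 over 24), and ribosomal protein S5 (r = 0.78 over 23). For COX4-2 they were 2 spots of the Cu-Zn superoxide dismutase (r = 0.77 and 0.75 over 24 arrays) and ribosomal protein S21 (r = 0.77 over 24). C205R127 was nearest to hemoglobin subunit beta-1 (r = 0.76 over 20 arrays), ND4 (r = 0.75 over 24) and lysozyme C II (r = 0.74 over 24). C001R146 was nearest to SLC28A3, a nucleoside transporter (r = 0.82 over 24), followed by 2 spots of unknown description (r = 0.80 and 0.80 over 24). Only spots that the study lists carry a description, so these r also reflect the shared differences between groups.

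Markers of liver and of blood also had different levels in these groups. The liver list held 6 spots, for apolipoprotein A-I-2, serum albumin, fibrinogen and complement C3, each above background on at least 22 of the 24 arrays, as the tissue label says, and 5 of the 6 were higher in D than in Wa. Its mean log2 ratio was between 0.31 and 1.30 in D, -0.17 and 0.80 in W/D, -1.10 and -0.33 in Wa and -0.28 and 0.71 in Ws. Of 35 hemoglobin spots, which stand for red blood cells, 34 were higher in D than in Wa. Only 19 of the 35 passed the filter, and the means were taken over all 35 with flagged values left out. The mean log2 ratio of these spots was between 0.06 and 2.14 in D, -0.30 and 0.56 in W/D, -0.66 and -0.02 in Wa and -1.07 and -0.20 in Ws. The 7 spots of leukocyte markers, immunoglobulin chains and lysozyme, of which 5 were higher in D than in Wa, had mean log2 ratios between 0.90 and 1.27 in D, 0.96 and 1.47 in W/D, -0.17 and 0.52 in Wa and -0.24 and 0.74 in Ws. The 2 leukocyte spots that were not higher in D were both of the immunoglobulin mu chain, so this mean does not stand for every marker on the list. For the 6 spots of sarcomeric actin, a muscle marker added after the first lists, the mean was between -0.91 and -0.02 in D, -2.75 and -0.77 in W/D, -1.65 and -1.05 in Wa and -0.35 and 0.83 in Ws. A single trypsinogen-like spot, the only one used for exocrine pancreas, was between 0.37 and 1.59 in D, 0.64 and 1.33 in W/D (n = 5), 0.09 and 1.25 in Wa and -0.73 and 0.98 in Ws. Spots that were set aside by hand are not counted in these marker lists. The lists too hold only spots listed as different, and their part in the levels of the 4 respiratory chain spots was not tested.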

How the data were processed

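Liver RNA of 24 fish was measured on 2-colour arrays that the authors quantified in ImaGene 9.0. The deposited intensity values, a mean signal and a median of the local background for every spot and channel, were not normalised. Their deposited log2 ratios, LOWESS-normalised and set relative to each oligo's median over the samples, served as an alternative.

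Background correction was by normexp with an offset of 50 and normalisation by loess within arrays, with control spots at weight 0 (limma 3.58.1 in R 4.3.3). Values under a quality flag that the sources used here do not define were treated as missing. The filter asked for a Cy5 signal of at least 300, unflagged, throughout at least 1 group of 6 arrays, and a value in all groups, which left 8679 oligos. A limma fit over the 4 groups gave two-sided p-values, adjusted by Benjamini-Hochberg within each pairing. The steps were tested on simulated data. Correlations between spots used 100000 permutations.

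The 4 members and all gene lists were chosen with earlier results of these data known. Named are the 4 spots, the 3 described spots most like each by r, and the other respiratory chain spots. Descriptions come from the study's additional files, which list only spots called different there. Alternatives covered background correction, normalisation, filter, flag, the Cy5 channel alone, the deposited ratios, analysis of variance with Tukey's test, slide as a block, and leaving out each fish or slide. Same-numbered fish were taken to share a slide and nothing else, and their deviations did not move together.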

Additional observations from a re-analysis of the deposited data

Results flagged for a closer look

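Of the 16 sets of 6 values, 4 spots in 4 groups, 2 held a fish whose distance from its nearest neighbour was a large share of the range of its group by Dixon's criterion, which chance gives in about 1 of 20 sets. At ND2 spot C205R127, D replicate 1 had a log2 ratio of 0.11 where the nearest D fish had 0.93, a gap of 0.635 of the range. Its Cy5 signal was the only one of the 24 at this spot not above the local background by 2 standard deviations. It lay on slide 1, where the reference pool was low at this spot as well. At ND2 spot C001R146, W/D replicate 2 had 2.02 where the nearest W/D fish had 0.96, a gap of 0.799 of the range. The same fish was at 0.48 at the other ND2 spot and its cytochrome c value of 0.24 was the lowest of the W/D fish. The cause of either value was not tested.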

How the results depend on the processing

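The direction of each called difference was kept under all alternatives run. With median centring, under which the median log2 fold change of all oligos was -0.18 in D vs Wa, 0.16 in both W/D vs D and W/D vs Ws and 0.17 in Wa vs Ws (-0.02 in D vs Wa and 0.02 in each of the others with loess), cytochrome c (0.95) and C001R146 (0.91) in D vs Wa and COX4-2 in W/D vs D (-1.33) lost their calls, leaving 1 and 0 of the 4 spots, and 2 other chain spots were called in W/D vs Ws. An offset of 10 lost cytochrome c in D vs Wa (1.14) and COX4-2 in W/D vs D (-1.56), leaving 0 there. No filter lost cytochrome c in D vs Wa (1.12). Cy5 alone lost cytochrome c (0.87) and C001R146 (0.85) in D vs Wa, COX4-2 (0.93) and C001R146 (0.72) in D vs Ws and COX4-2 in W/D vs D (-1.20), leaving 1, 1 and 0, gave 1 other chain spot in W/D vs Wa, and turned r of the ND2 pair to 0.73. The deposited ratios called C205R127 in D vs Wa (1.14) and C001R146 in W/D vs Wa (1.08), the 1 spot there, and 3, 4, 1 and 2 other chain spots in D vs Wa, D vs Ws, W/D vs Wa and W/D vs Ws. The methods' analysis of variance with Tukey's test lost cytochrome c (1.12) and COX4-2 (1.40) in D vs Wa and COX4-2 in D vs Ws (1.26) and in W/D vs D (-1.47), leaving 1 in D vs Wa and 0 in W/D vs D. Other chain counts fell to 0 in D vs Wa with no background correction, to 1 in D vs Ws with a signal of 300 on all arrays, and to 0 in W/D vs Ws with each of these, with the flag disregarded and with no filter. Leaving out 1 fish or slide (slides added after seeing the data) gave 0.98 to 1.28 for cytochrome c in D vs Wa and 0.80 to 1.42 in W/D vs Ws, 1.25 to 1.75, 0.92 to 1.61 and -1.70 to -1.25 for COX4-2 in D vs Wa, D vs Ws and W/D vs D, 0.94 to 1.24 and 0.94 to 1.15 for C001R146 in D vs Wa and D vs Ws, and 0.66 to 1.05 for C205R127 in D vs Wa. Of the 4 spots it left 1 to 3, 1 to 3, 0 to 1 and 0 to 1 called in D vs Wa, D vs Ws, W/D vs D and W/D vs Ws, and of the other chain spots 0 to 1 in D vs Wa, W/D vs D and W/D vs Wa and 0 to 3 in W/D vs Ws. With slide as a block, which pairs fish of different families and is given for that reason only here, no call changed (adjusted p by limma 0.0476 for C001R146 and 0.0757 for cytochrome c in W/D vs Ws), and same-slide deviations had mean correlations of 0.0086 to 0.0669. The causes of these changes were not tested. With 6 fish per group, differences near 2-fold are not resolved from smaller ones.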
